A study of Vitis vinifera and Vitis x champinii x Vitis riparia and Vitis cinerea var. helleri x Vitis rupestris with 22 samples.

Results

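Roots of the rootstock K51-40 were compared with roots of the wine grape Cabernet Sauvignon after both had been salt treated. K51-40 is a hybrid of Vitis champinii and Vitis riparia and is known as a variety that accumulates chloride (Cl-), whereas Cabernet Sauvignon is Vitis vinifera. The comparison used the 8 arrays labelled as salt-treated roots of these varieties, 4 of K51-40 and 4 of Cabernet Sauvignon, out of the 22 arrays of the series. The plants were rooted leaves, that is, leaf petioles induced to form roots and grown in hydroponics, and the treatment added 50 mM Cl- as a mixture of Na, Ca and Mg salts to the nutrient solution for 4 days. Each array held the RNA of whole roots pooled from 4 rooted leaves of 1 clonal variety. The same varieties without added salt (4 and 4 arrays in nutrient solution alone) and the salt-treated roots of a further rootstock, 140 Ruggeri (Vitis berlandieri × Vitis rupestris, 3 arrays), which is known to exclude Cl-, were used beside it. All plants were rooted with the same hormone treatment, and no group was free of it.

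Chloride enters the root with the nutrient solution and reaches the shoot through the xylem, the water-conducting vessels at the centre of the root. Its passage over plant membranes is carried out by families that mostly also carry nitrate. These include the NRT1/POT family of proton-coupled nitrate and peptide carriers with its NAXT branch of nitrate excretion transporters, the CLC proteins of internal membranes, the slow anion channels SLAC and SLAH, the ALMT channels and the cation-chloride cotransporters. Sodium is exported by the antiporter SOS1, water crosses membranes through aquaporins, and the hormone abscisic acid (ABA) reports water deficit through the PYL receptors.

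The values are processed log2 signals of a single-colour oligonucleotide array with 52478 designed probes for 26241 genes, of which 26237 had 2 probes. A difference is given as K51-40 minus Cabernet Sauvignon on this log2 scale, so that a value of 1 is 2-fold. A probe was called when its adjusted p in limma was at most 0.05 and its absolute difference at least 0.5, which is 1.41-fold, and a gene was counted as higher or lower only when every probe of it was called in that direction. Where several probes of a gene are given, the first is the one with the smaller difference. The share of spots well above background was 72.5% to 78.2% on the K51-40 salt arrays and 78.6% to 82.0% on those of Cabernet Sauvignon, and the median spot was 4.61 to 8.45 and 8.30 to 14.9 times the background. The correlation over probes (Pearson's r, with probes not being replicates) was 0.987 to 0.993 among K51-40 salt arrays, 0.992 to 0.995 among those of Cabernet Sauvignon and 0.930 to 0.942 between the varieties. Each variety had 2 salt arrays on each of 2 scan dates. On the first date the varieties were on separate slides, so slide and variety cannot be told apart there, and on the second they shared a slide. With slide as a random block, 8953 probes were called higher and 8673 lower. Of 20 probes of 10 aquaporin genes, which roots express, 20 and 18 were above background in K51-40 and Cabernet Sauvignon, and of 16 probes of 8 photosynthesis genes 15 were in each, so that transcripts of green tissue were detected in both. The processed values of the array labelled Cabernet Sauvignon control replicate 3 fitted the scanner output of control replicate 2 best (r 0.995) and its own less well (r 0.930). This array was used only in the comparisons with control arrays. Whether it touched the deposited values of the salt arrays, through the authors' normalisation and batch correction, was not tested. The p values measure the spread between these pooled samples.

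The varieties differed at a large part of the genes measured. With salt, 8930 probes (17% of those tested) were higher in K51-40 and 8666 (16.5%) were lower. This even split, 50.8% of calls higher, depends on the scaling, since scaling to the 75th percentile of each array gave 15341 higher and 9810 lower probes (61.0% higher). Both probes of a gene were higher for 2718 genes (10.4%) and lower for 2580 genes (9.83%), together 5298 genes (20.2%), and 11900 genes (45.3%) had at least 1 called probe. The median difference over all probes was 0.05, the median absolute difference 0.31, and that of called probes 0.89. The middle of the distribution was narrow, with the 5% and 95% quantiles at −1.31 and 1.13, and the median SE of a difference was 0.11. The values of the 4 and 4 arrays did not overlap for 24476 probes (46.6%).

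Large differences were more often seen as lower signal in K51-40, and the excess lay in genes whose probes did not behave alike. At a difference of at least 3 (8-fold), 223 probes were higher and 415 were lower, but when every probe of the gene had to pass, 53 genes were higher and 56 lower. In 155 genes 1 probe was lower by this much while the other differed by less than 1, and 42 genes showed this in the other direction. Over all genes with 2 probes, r between the differences of both probes was 0.623, and 73.5% had both on the same side of 0. Where both were called, 5298 of 5696 genes (93.0%) had them in 1 direction, and 398 genes (1.52% of all) were called in opposite directions. The array carries 1 probe sequence for all varieties, designed on the gene models of Vitis vinifera, so a lower signal from a sequence difference in K51-40 cannot be told apart from less RNA. Fewer cells of a type and less RNA per cell cannot be told apart either in RNA of whole roots.

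**Figure D1:**
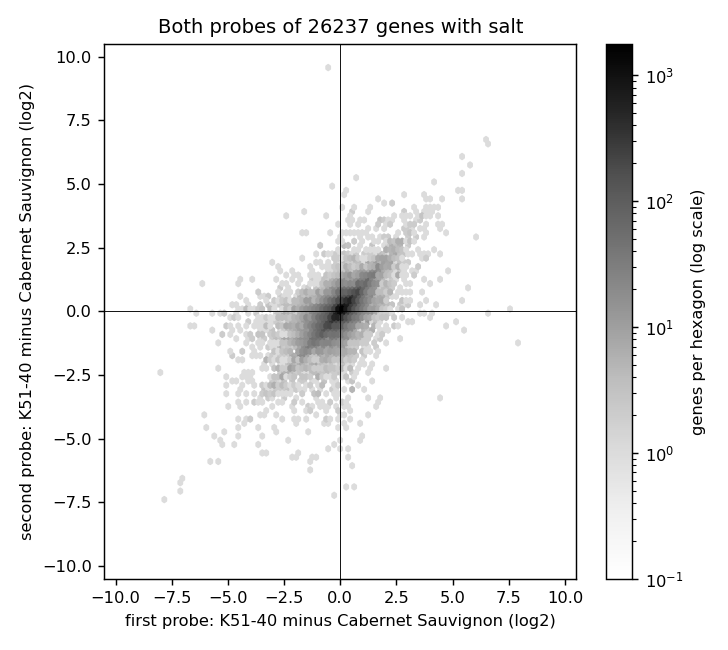
Difference between K51-40 and Cabernet Sauvignon with salt (log2) for the probe listed first (x axis) and the one listed second (y axis) of 26237 genes, in the order of the probe numbers, with the number of genes in each hexagon as shade on a log scale. Most genes lie near 0 or along the diagonal, and the arms along both axes, heavier on the negative side, are genes in which only 1 probe differed by much.

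The lowest annotated genes in K51-40 by the smaller of their probes were led by a pair of germacrene D synthases and RD22. A germacrene D synthase, which makes a volatile sesquiterpene (GSVIVT01036331001, chromosome 18), read 5.80, 5.97, 4.97 and 4.94 on the K51-40 arrays and 12.72, 12.86, 12.86 and 12.80 on those of Cabernet Sauvignon. That is a difference of −7.39 ± 0.22 (SE), or 168-fold, with an adjusted p of 5.43e-09, and the other probe gave −7.85. All Cabernet Sauvignon arrays were far above every K51-40 array, and the 3 arrays of 140 Ruggeri read 7.12, 7.13 and 7.13. A further germacrene D synthase on the same chromosome (GSVIVT01036322001) read 6.77, 5.74, 5.95 and 6.01 in K51-40 and 12.30, 12.21, 14.10 and 14.07 in Cabernet Sauvignon, a difference of −7.05 (adjusted p 4.25e-07). Here 140 Ruggeri, at 12.25, 11.96 and 12.88, was nearer to Cabernet Sauvignon.

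RD22 (GSVIVT01035690001, chromosome 4), whose counterpart in Arabidopsis is induced by dehydration and ABA, read 7.28, 7.25, 7.89 and 7.89 in K51-40 against 13.52, 13.95, 14.61 and 14.97 in Cabernet Sauvignon. The difference of −6.69 is 103-fold (adjusted p 3.5e-08), and 140 Ruggeri was at 12.61, 13.46 and 12.35. For the tyrosyl-tRNA synthetase gene GSVIVT01019752001, which charges tRNA with tyrosine, no K51-40 array was well above background, and the signal was at least 42.6-fold and at least 58.7-fold lower than in Cabernet Sauvignon by its 2 probes. These bounds were taken, per array, against the probe's own signal or, where that was lower, the lowest signal that was well above background. The other annotated genes among the 10 lowest were a phospholipase A2 precursor (GSVIVT01015240001, −4.30 and −4.34), a flavin-containing monooxygenase (GSVIVT01023948001, −4.26 and −4.28), a zinc knuckle protein (GSVIVT01017617001, at least 16.7-fold lower at 1 probe and −6.10 at the other), an acetyltransferase annotated after taxane synthesis (GSVIVT01024259001, −3.65 and −5.21), an anthocyanidin 3-O-glucosyltransferase, which attaches glucose to anthocyanin pigments (GSVIVT01036732001, −3.55 and −4.08), and a MATE efflux protein (GSVIVT01029913001, −3.46 and −3.52). In each of these the arrays of both varieties were separate at both probes, which is part of the rule by which they were chosen.

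Among genes higher in K51-40, the largest annotated difference was that of a 33 kDa secretory protein (GSVIVT01005284001, chromosome 7). It read 13.004, 12.39, 12.83 and 13.18 in K51-40 and 6.25, 5.86, 6.53 and 6.45 in Cabernet Sauvignon, which is 6.57 ± 0.19 (SE) or 95.3-fold (adjusted p 4.65e-09), and 140 Ruggeri was at 11.91, 11.30 and 11.75. Its second probe gave 6.60. A cytochrome P450 of family 79 (GSVIVT01032694001, chromosome 13), a family that acts on amino acids, read 10.16, 8.99, 8.11 and 8.95 against 5.30, 5.35, 5.44 and 5.64, a difference of 3.62 (adjusted p 7e-06), and at the other probe it was at least 13.5-fold higher. K51-40 spread over about 2 log2 units at this gene and still stayed above every Cabernet Sauvignon array.

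Of the other 8, pathogenesis-related protein 4 (GSVIVT01036278001, chromosome 14), a chitin-binding defence protein, differed by 3.51 and 3.52. A pair of O-methyltransferase genes on chromosome 12, annotated as isoflavone or orcinol methyltransferase (GSVIVT01020734001 and GSVIVT01020645001), differed by 3.22 and 2.72 at the nearer probe, and as near copies in annotation they may share signal. An S-locus receptor kinase (GSVIVT01001251001, 2.91 and 3.79) and the resistance gene RPS2, which guards against Pseudomonas in Arabidopsis (GSVIVT01015167001, 2.71 and 2.95), followed. A gene annotated as nitric-oxide reductase (GSVIVT01025002001, 2.57 and 2.66) and an amino acid permease (GSVIVT01011401001, 2.54 and 2.79) were the others beside the nitrate transporter NTL1 described below. Genes without an annotation in the tables used reached as far. GSVIVT01027451001 was 6.40 and 6.79 higher in K51-40, GSVIVT01028594001 was 5.80 and 5.84 higher, GSVIVT01003215001 differed by −5.74 and was at least 61.7-fold lower at the other probe, and GSVIVT01036343001 was at least 98.3-fold and at least 124-fold lower.

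**Figure D2:**
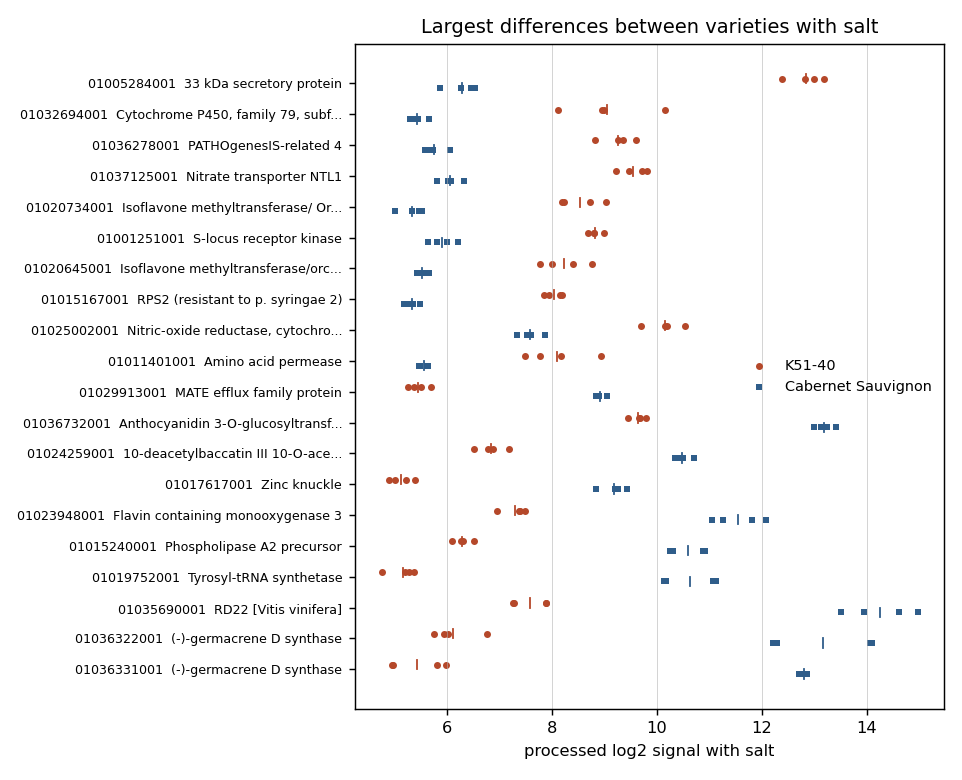
Processed log2 signal with salt (x axis) of the 10 annotated genes with the largest differences in each direction, 4 K51-40 arrays (circles) and 4 Cabernet Sauvignon arrays (squares) for the probe with the smaller difference, with short lines at the group means. The arrays of both varieties do not overlap for any of these genes, and the germacrene D synthases and RD22 are about 7 log2 units apart.

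Detection split less evenly than the calls. Of 52478 probes, 237 were well above background on all 4 K51-40 salt arrays and on no Cabernet Sauvignon salt array. Their median was at least 3.16-fold, with up to at least 44.0-fold, and 209 of them (88.2%) were also detected in this way without salt. The reverse held for 1149 probes, 627 of them (54.6%) also without salt, with a median of at least 1.77-fold and up to at least 258-fold. Without salt, detection on the doubtful array labelled Cabernet Sauvignon control replicate 3 was left out. The rule there used only the other control arrays of that variety. Both probes behaved so in 36 genes for K51-40 and in 195 genes for Cabernet Sauvignon. The K51-40 arrays had a lower signal over background, and its part in these counts was not tested.

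Of the 90 anion transporter genes on the array, 11 were higher and 11 were lower in K51-40 by both probes, which is 12.2% in each direction beside 10.4% and 9.83% of all genes. No probe was called for 48 of the 90, and the median difference over the 180 probes of all 90 genes was 0.05, equal to that of all probes. Some of the genes without a call, such as GSVIVT01033117001 and GSVIVT01012689001, were not well above background on any salt array of either variety. The absence of a call does not show equal levels there, and such probes also enter the median. Each of these probes was printed 11 or 12 times per array, and the spots were averaged. The genes were selected for the array by the study as candidates for Cl- transport and not by their level in these samples.

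**Figure D3:**
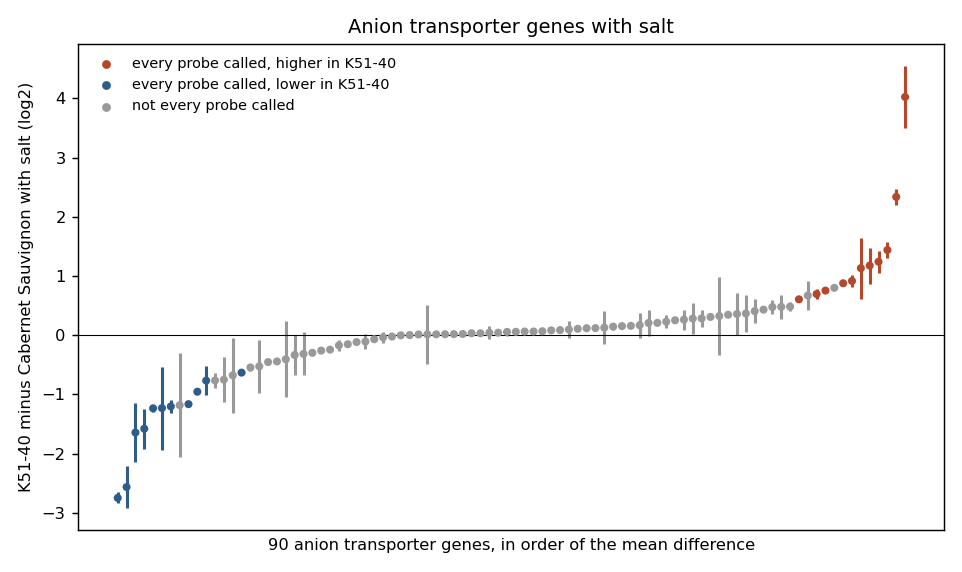
Difference between K51-40 and Cabernet Sauvignon with salt (log2, y axis) for 90 anion transporter genes in order of the mean of their probes (points), with lines from the lowest to the highest probe. Of these genes 11 are coloured as higher and 11 as lower at every probe, and the remainder lie near 0 or have probes that differ from each other.

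The NRT1/POT family, which holds 51 of these genes, had 7 higher and 7 lower members (13.7% each way). NTL1 (GSVIVT01037125001, chromosome 18), annotated as a nitrate transporter, was the highest. It read 9.71, 9.22, 9.47 and 9.81 in K51-40 and 6.32, 6.07, 6.01 and 5.80 in Cabernet Sauvignon, a difference of 3.50 ± 0.15 (SE) or 11.3-fold (adjusted p 2.67e-08), with 4.54 at the other probe. The 3 arrays of 140 Ruggeri lay between the varieties at 8.19, 8.46 and 7.94. A proton-dependent oligopeptide transporter on the same chromosome (GSVIVT01026072001) differed by 2.20 and 2.47, and its neighbour in the family GSVIVT01026065001 by 0.84 and 0.92. Nitrate transporter 1:2 (GSVIVT01008064001, chromosome 17) differed by 1.30 and 1.58. Another gene of that name (GSVIVT01009579001), with a higher signal in both varieties, was lower in K51-40 by −0.60 and −0.66. GSVIVT01020076001, GSVIVT01021298001 and GSVIVT01031343001, also of that name, were not called at either probe. Of these, GSVIVT01021298001 and GSVIVT01031343001 were not well above background on any salt array of either variety. Among lower members, VvNRT1.5 (GSVIVT01013171001, chromosome 2), named after a carrier that loads nitrate into the xylem in Arabidopsis, had −1.15 and −2.14. The paper states that its VvNRT1.5 probe exceeded the limit on sequence match set for other probes, and no such filter was applied here. A gene annotated as NRT1-5 (GSVIVT01032603001) had 0.12 and 0.34, neither called. Further lower members were GSVIVT01017052001 with −1.17 and −1.30, and GSVIVT01035643001, which was not well above background in K51-40 and was at least 2.08-fold and at least 2.23-fold lower. VvGTR2 (GSVIVT01008073001), named after a glucosinolate transporter, differed by 0.81 and 1.02. For VvNRT1.8 (GSVIVT01018395001), named after a carrier that unloads nitrate from the xylem in Arabidopsis, the probes gave 0.28 (adjusted p 0.352) and 0.68 (adjusted p 0.0246), and the arrays of the varieties overlapped at the first.

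Both nitrate excretion transporters of the list were lower in K51-40. They lie on chromosome 6 and belong to the branch whose Arabidopsis members move nitrate, and in part chloride, out of root cells. NAXT2 (GSVIVT01025106001) read 7.06, 7.45, 7.33 and 7.24 in K51-40 and 9.84, 10.04, 9.78 and 10.05 in Cabernet Sauvignon, with a difference of −2.65 ± 0.11 (SE) or 6.30-fold (adjusted p 2.14e-08). NAXT1 (GSVIVT01025107001) read 7.44, 7.53, 7.25 and 7.63 against 9.57, 9.72, 9.54 and 9.84, a difference of −2.21 (adjusted p 6.79e-08). At its other probe no K51-40 array was well above background, and the observed difference was −2.92, or 7.58-fold. The arrays of the varieties were separate for both genes. In 140 Ruggeri, NAXT1 read 8.62, 9.19 and 9.06 and NAXT2 8.27, 8.98 and 8.59, in each case above all K51-40 arrays and below all Cabernet Sauvignon arrays.

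Of the 8 CLC genes, whose products exchange chloride or nitrate over internal membranes, 1 was higher and 1 lower at both probes (12.5% each way). CLC-F (GSVIVT01014852001, chromosome 19) read 7.51, 7.61, 7.67 and 7.59 in K51-40 and 8.66, 8.75, 8.95 and 8.99 in Cabernet Sauvignon, a difference of −1.24 (adjusted p 1.92e-06), with −1.92 at the other probe. A chloride channel protein B gene (GSVIVT01033108001, chromosome 14) went the other way by 0.61 and 0.78, from 11.84 to 12.28 in K51-40 and 11.19 to 11.62 in Cabernet Sauvignon, and with 0.42 at the nearer probe was not called on the first scan date alone. Probes differed for the CLC-c gene GSVIVT01000264001, at −0.30 and −2.06, and for GSVIVT01012828001, at −0.37 and −1.14, so their level was not settled by the array. The second CLC-c gene (GSVIVT01023156001) had 0.56 at the probe that both varieties showed above background.

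Of the slow anion channels, only SLAH3 was called. SLAH3 (GSVIVT01028789001, chromosome 16), a nitrate and chloride channel in Arabidopsis, gave −0.53 at 1 probe (adjusted p 0.0483) and −1.01 at the other (adjusted p 0.000749). Its K51-40 arrays at the first probe, 8.20, 7.95, 8.36 and 7.94, overlapped with those of Cabernet Sauvignon, 7.997, 8.85, 8.70 and 9.005, and this probe missed the threshold in 16 of the alternatives run. SLAC1 (GSVIVT01019915001) was not well above background at 1 probe in either variety, and the other probe, above it on 1 K51-40 array and 3 of Cabernet Sauvignon, had 0.06 (95% interval −0.11 to 0.23). A gene annotated as SLAH1 (GSVIVT01009814001) was not well above background on any of the 8 arrays at either probe. Of the other SLAH1 genes, GSVIVT01012686001 had 0.32 at the probe that was detected throughout, and GSVIVT01030451001 was not well above background in K51-40, and neither was called. The only cation-chloride symporter (GSVIVT01021607001), of a type that takes part in xylem Cl- handling in Arabidopsis, was detected on all arrays and had 0.10 and 0.14, with intervals from −0.14 to 0.33 and from −0.08 to 0.35. A change of 1.41-fold lies outside both intervals of the symporter.

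Of the ALMT genes, which encode channels for malate and other anions, GSVIVT01011148001 was lower in K51-40, with −1.07 and −1.54. VvALMT1 (GSVIVT01036162001) had 0.45 and 0.59, of which only the second was called. A further ALMT gene tabulated by the study (GSVIVT01037570001) lost or gained its call in 2 of the alternatives run, where it differed by −0.88 and −0.52. The ABC transporter C member 12 (GSVIVT01016879001) and a gene annotated as ribosomal protein SA (GSVIVT01016695001), both printed among the anion transporters, were higher by 0.87 and 1.48 and by 1.05 and 1.43.

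Genes of sodium, calcium and ABA signalling differed in both directions. Of 37 genes that the study tabulated as transport and signalling genes of interest, 17 were lower (45.9%) and 3 were higher (8.11%), beside 9.83% and 10.4% of all genes. Their median difference was −0.61. The study selected this list on these samples, as transporters and regulators that differ between 140 Ruggeri and K51-40 without salt, so the direction is not independent evidence. SOS1 (GSVIVT01011573001, chromosome 1), the plasma membrane antiporter that exports Na+, read 6.72, 6.83, 6.12 and 6.00 in K51-40 and 8.28, 8.57, 8.36 and 8.33 in Cabernet Sauvignon, a difference of −1.97 (adjusted p 6.79e-06), and the 140 Ruggeri arrays were lower than both at 5.09, 5.22 and 5.19. SOS3 (GSVIVT01038549001), the calcium sensor of the same pathway, went the other way with 0.64 and 0.73. The kinase SOS2 (GSVIVT01024587001), which SOS3 activates, had 0.17 and 0.58, and only the second probe was called.

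The ABA receptor PYL1 (GSVIVT01013161001, chromosome 2) read 7.25, 6.70, 6.57 and 6.98 in K51-40 and 9.52, 9.50, 9.56 and 9.53 in Cabernet Sauvignon. The difference of −2.65 ± 0.14 (SE), 6.28-fold, had an adjusted p of 9.63e-08, and 140 Ruggeri stood between at 7.84, 7.86 and 8.12. At their nearer probes the ABA-activated kinases had −0.16 (SnRK2.6, GSVIVT01002389001) and 0.25 (SnRK2.7, GSVIVT01003419001), neither called. Of the 37 genes tabulated by the study only 2 had no called probe, and the transporter GSVIVT01023146001 was 1 of them. The other probe of SnRK2.6, of SnRK2.7 or of both was thus called, so equal levels are not shown. Of 16 genes of the ABA list, 2 were higher (12.5%) and 1 was lower (6.25%), beside 10.4% and 9.83% of all genes. The higher ones were a protein phosphatase 2C, of the group that the receptors inhibit (GSVIVT01028698001, 0.99 and 1.109), and a late embryogenesis abundant protein (GSVIVT01025171001, 0.52 and 1.16). The nearer probe of the latter missed the threshold in 8 of the alternatives run, with 0.45 to 0.52, among them those without K51-40 salt replicates 2 or 3 or without Cabernet Sauvignon salt replicates 1, 2 or 4.

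Of the calcium pumps of the ACA type, which remove Ca2+ from the cytosol, both ACA2 genes were lower in K51-40. GSVIVT01000123001 differed by −1.28 and −1.43 and GSVIVT01000116001 by −0.95 and −3.73. An ACA12 gene (GSVIVT01021803001) had −0.997 and −1.15. Another ACA12 gene (GSVIVT01018059001) lost or gained its call in 4 of the alternatives run, where it had −1.24 to −0.41. The calcium exchanger CAX3 (GSVIVT01024741001) had −0.61 and −0.71, the first of which fell below the threshold without K51-40 salt replicate 1 (−0.43), whereas CAX2 (GSVIVT01016118001) had 0.13 at 1 probe and −3.08 at the other. ACA13 (GSVIVT01018061001) had 0.61 and 0.84, but was not well above background in Cabernet Sauvignon, and this is at least 1.52-fold and at least 1.76-fold higher. Its first probe missed the threshold in 12 of the alternatives run, among them those without K51-40 salt replicates 3 or 4 or without Cabernet Sauvignon salt replicates 2, 3 or 4, and on the first scan date alone had an adjusted p of 0.999. Of the calcium-dependent protein kinases, GSVIVT01008747001 had −1.27 and −1.40, GSVIVT01022524001 −0.88 and −1.13 and GSVIVT01019868001 −0.75 and −0.98, while GSVIVT01018316001 had 0.16 and 0.84. Other pumps and kinases that the study tabulated are not described here. Of the NRT2 family of high-affinity nitrate carriers, GSVIVT01013802001 differed by −1.03 and −1.21 and GSVIVT01032430001 by −0.56 and −0.61, and the nearer probe of the second lost its call without K51-40 salt replicate 1 (−0.45) or Cabernet Sauvignon salt replicate 4 (−0.48).

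Aquaporins were mostly higher in K51-40. Of 10 aquaporin genes in the tables used, 6 were higher and 2 lower, beside 10.4% and 9.83% of all genes, and the median difference over their 20 probes was 1.13. The study listed 7 of the 10 as salt-responsive on these samples. The nodulin-like NIP1.2 (GSVIVT01011407001, chromosome 14) read 9.87, 9.51, 10.14 and 10.95 in K51-40 and 7.94, 7.72, 8.04 and 7.86 in Cabernet Sauvignon, a difference of 2.22 or 4.68-fold (adjusted p 2.96e-05). The vacuolar TIP1.3 (GSVIVT01016615001, chromosome 13) read 10.61, 11.24, 12.55 and 11.83 against 9.51, 9.73, 9.62 and 9.78, a difference of 1.90. The plasma membrane aquaporin VvPIP2;3, annotated as PIP2;4 (GSVIVT01025681001), differed by 1.24 and 1.56. In all 3 the arrays of the varieties did not overlap.

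The TIP2 genes GSVIVT01004718001 (VvTIP2;3) and GSVIVT01006527001 were higher by 1.34 and 1.80 and by 1.01 and 1.34, and the PIP1 gene GSVIVT01024113001 by 0.99 and 1.37. The vacuolar gamma-TIP (GSVIVT01033677001) and TIP4;1 (GSVIVT01035640001) were the lower ones, with −1.30 and −1.31 and with −1.20 and −3.17. For a further gamma-TIP (GSVIVT01031464001) no probe was called with salt, at 0.12 and 0.13.

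Cation, metal and nutrient carriers moved in both directions. Of 26 cation transporter genes, 5 were higher (19.2%) and 9 lower (34.6%), with a median of −0.25. Shares in this and the following transporter lists stand beside 10.4% and 9.83% of all genes. Many of these names come from tables the study chose for differing on these samples. Without the genes named only in its table of genes lower in K51-40 than in 140 Ruggeri, 1392 named genes remained, of which 274 were higher and 267 lower. CHX20 (GSVIVT01034211001, chromosome 8), a cation/proton exchanger that acts in guard cells of Arabidopsis, read 8.91, 8.39, 8.49 and 9.01 in K51-40 and 10.78, 11.11, 11.51 and 11.58 in Cabernet Sauvignon, a difference of −2.54 (adjusted p 1.86e-06), with 140 Ruggeri at 11.45, 11.75 and 11.42. A CHX18 gene (GSVIVT01019458001) was higher by 0.76 and 0.83, and a Na+/phosphate transporter (GSVIVT01024780001) by 0.77 and 1.01.

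Of 22 metal transporter genes, 4 were higher (18.2%) and 3 lower (13.6%). The metal transporter Nramp6 (GSVIVT01008828001, chromosome 18) was higher by 2.44 and 2.69, and a metal-nicotianamine transporter of the YSL type (GSVIVT01019645001) by 1.57 and 2.15. A ZIP zinc transporter (GSVIVT01036734001) and ferric reductase defective 3, which carries citrate into the xylem in Arabidopsis (GSVIVT01032091001), were lower, with −0.93 and −1.13 and with −0.93 and −1.11.

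Among 19 genes for sulfate, phosphate, ammonium and NRT2 nitrate carriers, 3 were higher (15.8%) and 5 lower (26.3%). Sulfate transporter 1.2 (GSVIVT01029766001), a high-affinity uptake carrier in Arabidopsis roots, read 7.26, 7.35, 7.10 and 7.26 in K51-40 and 5.94, 6.05, 5.65 and 5.34 in Cabernet Sauvignon, 1.50 apart, with 2.19 at the other probe. An inorganic phosphate transporter (GSVIVT01027801001) was higher by 1.36 and 1.88. A further sulfate transporter (GSVIVT01011744001) and one of group 3 (GSVIVT01017118001) were lower, with differences of −1.38 and −1.50 and of −1.22 and −2.07.

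Sugar and ABC transporters also split, with 14.3% of the sugar genes higher and 28.6% lower, and 20% and 25% of the ABC genes. Of 14 sugar transporter genes 2 were higher, among them a nodulin MtN3 family gene, of the group of sugar exporters (GSVIVT01008595001, 1.92 and 2.15), and 4 were lower, among them an ERD6-like carrier (GSVIVT01017845001, −1.94 and −2.22) and polyol transporter 5 (GSVIVT01031930001, −1.37 and −3.80). Of 40 ABC transporter genes 8 were higher and 10 lower. ABC transporter C member 1, of a group that loads conjugates into the vacuole (GSVIVT01015960001, 2.30 and 2.57), and ABC transporter G member 22 (GSVIVT01034746001, 1.96 and 2.16) led the higher ones. A pair of pleiotropic drug resistance genes on chromosome 9 (GSVIVT01017204001 and GSVIVT01017202001) led the lower ones, with −2.07 and −2.01 at the nearer probe.

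The names of genes in the next groups came from the supplementary tables of the study. Of the 2744 genes so annotated, 700 (25.5%) were lower and 311 (11.3%) higher in K51-40, and many of these names come from a table of genes chosen on these samples for being lower in K51-40 than in 140 Ruggeri. Without the 1352 genes listed in that table alone, 1392 genes remained, of which 267 were lower and 274 higher. The counts below are also given without them, and none is independent evidence of a direction.

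Terpene synthases were lower in K51-40 as a group, at 10 of 22 genes, and none was higher at both probes. Their median difference was −1.24, and 3 of the 7 genes outside the selected table were also lower, with a median of −0.63. They lie mostly on chromosome 18 among near-identical copies, so 1 probe can read several of them. Beside the germacrene D synthases above, valencene synthase (GSVIVT01036308001) had −3.19 and −3.81, a sesquiterpene synthase on chromosome 19 (GSVIVT01014174001) −3.28 and −3.80, and a delta-cadinene synthase (GSVIVT01036371001) −2.99 and −3.24. Against the group, GSVIVT01036313001 had 4.67 at 1 probe and −0.65, not called, at the other.

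Flavonoid genes numbered 51, with 7 higher and 16 lower, and 7 higher and 3 lower of 28 outside the selected table. Flavonol synthase (GSVIVT01008907001, chromosome 18), which forms flavonols, read 7.50, 7.50, 7.84 and 7.47 in K51-40 and 10.60, 10.87, 11.35 and 11.10 in Cabernet Sauvignon, a difference of −3.40 (adjusted p 4.48e-08). With the anthocyanidin glucosyltransferase above it was among the lowest, while the O-methyltransferases of chromosome 12 were the highest.

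Defence and detoxification genes included large differences of both signs. Of 19 glutathione S-transferase genes 7 were lower and 1 was higher (5 and 1 of 13 outside the selected table). GSTU25 (GSVIVT01014963001, chromosome 19), which conjugates glutathione to foreign or toxic molecules, had −3.19 and −4.51, and a second gene of that name (GSVIVT01038059001) −2.17 and −2.58. GSTF8 (GSVIVT01027961001), at 14.78 to 15.07 in K51-40 and 13.92 to 14.61 in Cabernet Sauvignon, was higher by 0.76 at both probes. Of 32 pathogenesis-related genes 10 were lower and 2 higher (5 and 2 of 20). A beta-1,3-glucanase, which cuts fungal cell walls (GSVIVT01031543001, chromosome 6), had −3.24 and −5.55, against the PR4 gene named above on the other side.

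Resistance genes, which encode receptors for pathogen proteins, were 13 higher and 14 lower of 74, and 10 higher and 2 lower of the 25 outside the selected table. MLA10 (GSVIVT01031992001, chromosome 13) was higher by 2.16 and 2.86, and an NBS-type gene (GSVIVT01014125001, chromosome 19) had −3.11 and −3.68. Of 36 heat shock genes 4 were higher and 11 lower (4 and 6 of 26), with a small heat shock protein (GSVIVT01035434001) at 1.54 and 1.85 and HSP17.5 (GSVIVT01016572001) at −1.63 and −1.91. Of 37 redox genes 7 were higher and 6 lower (7 and 3 of 15), and of 38 MYB and WRKY regulators 3 were higher and 8 lower (2 and 5 of 26), among the latter WRKY51 (GSVIVT01033194001, −1.56 and −1.58).

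Of 70 cell wall genes 12 were higher and 11 lower (9 and 7 of 44 outside the selected table). The cellulose synthase-like genes CSLG2 (GSVIVT01027717001, 1.78 and 1.85) and CSLE1 (GSVIVT01007041001, 1.30 and 1.41) were higher, and a laccase, of the enzymes that polymerise lignin (GSVIVT01034040001, −2.63 and −5.06), and a pectinesterase (GSVIVT01015290001, −2.21 and −2.23) were lower. Of 30 respiration genes 4 were higher and 4 lower (4 and 0 of 12), with cytochrome c oxidase subunit 6b (GSVIVT01013246001) at 1.62 and 1.78. Among 19 genes of alcohol dehydrogenases and low oxygen, 4 were higher and 3 lower (2 and 1 of 8). A cinnamyl alcohol dehydrogenase (GSVIVT01003153001), which makes lignin precursors, had 1.69 and 3.44, and non-symbiotic hemoglobin 2 (GSVIVT01031901001) had −1.30 at 1 probe and −6.15 at the other. The clock-related LCL1 (GSVIVT01025544001) was higher by 1.38 and 1.51.

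Most of the variety difference was also measured without salt, in 8 other arrays. There, 8626 probes (16.4%) were higher in K51-40 and 8440 (16.1%) lower, as were 2688 genes (10.2%) and 2510 genes (9.57%) by both probes. An unadjusted p of at most 0.05 was reached by 54.7% of probes there and by 55.7% with salt. Of the probes higher with salt, 6619 (74.1%) were called higher without salt and 15 were called lower. Of the probes lower with salt, 7029 (81.1%) were called lower and 9 higher. The differences of both comparisons had an r of 0.938 across all probes. For the 33 kDa secretory protein the difference without salt was 6.22, for NTL1 3.30, for NAXT1 −2.03, for NAXT2 −2.54, for PYL1 −3.06, for SOS1 −2.03 and for the first germacrene D synthase −6.83, and every one of these was called in the same direction as with salt.

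**Figure D4:**
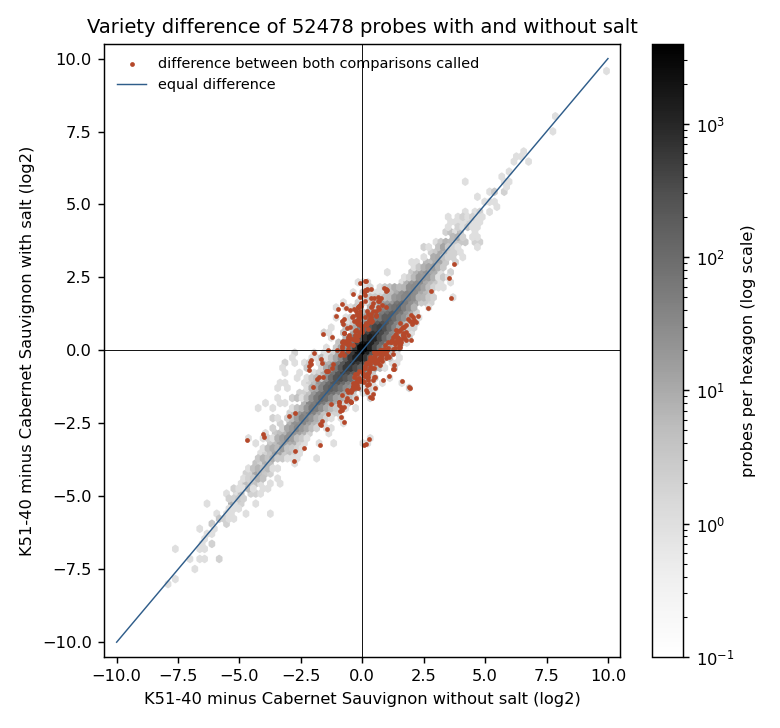
Difference between K51-40 and Cabernet Sauvignon without salt (x axis) and with salt (y axis), both log2, for 52478 probes, with the number of probes per hexagon as shade on a log scale, the line of equal differences, and in colour the 340 probes at which both differences differed by the test. Most probes follow the line, and the coloured ones lie above or below it.

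The difference between both comparisons was tested in 1 fit over the 16 arrays. It was called for 145 probes (0.276%) above and 195 (0.372%) below, 340 (0.648%) in all, in 256 genes (0.976%), and with both probes in 84 genes (0.32%). An unadjusted p of at most 0.05 was reached by 6956 probes (13.3%). The counts were not stable to the arrays used, and with Cabernet Sauvignon control replicate 3 left out there were 61 and 100 probes. Left out in turn, the 16 arrays gave between 61 and 256 probes above, the most without K51-40 salt replicate 4, and between 100 and 253 below, the most without K51-40 salt replicate 3. With the replicate number as a block 307 and 395 probes were called, and same-numbered salt and control arrays deviated together in K51-40 (r 0.31 to 0.43) but not at each number in Cabernet Sauvignon (r −0.35 to 0.37). From the scanner intensities 4 and 19 probes were called, and 81 and 115 without the scanner output labelled Cabernet Sauvignon control replicate 3.

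Some genes were higher in K51-40 with salt and lower or level without it. Erg-1 (GSVIVT01028055001, chromosome 7), named after an elicitor-responsive gene, read 9.99, 9.51, 10.52 and 9.79 in K51-40 and 8.44, 7.79, 8.53 and 8.64 in Cabernet Sauvignon with salt. Without salt it read 8.10, 7.83, 8.24 and 8.17 against 8.80, 8.61, 8.96 and 9.25. The varieties were thus in opposite order with no overlap in either condition, and the difference between 1.60 and −0.82 was 2.42 (95% interval 1.80 to 3.03, adjusted p 0.00115). A polygalacturonase inhibiting protein, which blocks fungal pectin-cutting enzymes (GSVIVT01033370001, chromosome 8), had 1.41 with salt and −1.003 without (difference 2.42, adjusted p 0.0106), and both of its probes passed. From the scanner intensities it was 1.90 and not called. The unannotated GSVIVT01026640001 had 2.30 with salt and −0.07 without at 1 probe (adjusted p 0.00465), but −0.78 and −0.81 at the other, and was not called from the scanner intensities either. Aquaporin VvTIP2;3 (GSVIVT01004718001) had 1.34 with salt and −0.25 without (difference 1.59, adjusted p 0.00657), with salt arrays at 10.60, 9.88, 10.19 and 10.69 in K51-40 and 8.93, 8.88, 9.28 and 8.91 in Cabernet Sauvignon.

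In the other direction, some genes were higher in Cabernet Sauvignon with salt and closer without it. Germin-like protein 3, of a family of secreted wall proteins (GSVIVT01031080001, chromosome 14), read 8.59, 9.44, 9.27 and 9.20 in K51-40 and 11.94, 11.80, 12.73 and 13.05 in Cabernet Sauvignon with salt. Without salt it read 8.22, 8.35, 8.14 and 8.41 against 7.71, 7.89, 8.49 and 8.81, which overlap. The difference was −3.31 (95% interval −4.13 to −2.49, adjusted p 0.000973), its second probe gave −1.35 and was not called, and 140 Ruggeri with salt was at 12.30, 11.77 and 12.18, near Cabernet Sauvignon. The unannotated GSVIVT01000102001 and GSVIVT01000101001 gave −3.34 and −3.32 at 1 probe each. A class III peroxidase (GSVIVT01032715001, chromosome 13) passed at both probes (−1.61 and −1.68). It had −1.42 with salt and 0.19 without at 1 probe, and −2.44 and −0.75 at the other, where Cabernet Sauvignon was already higher without salt.

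**Figure D5:**
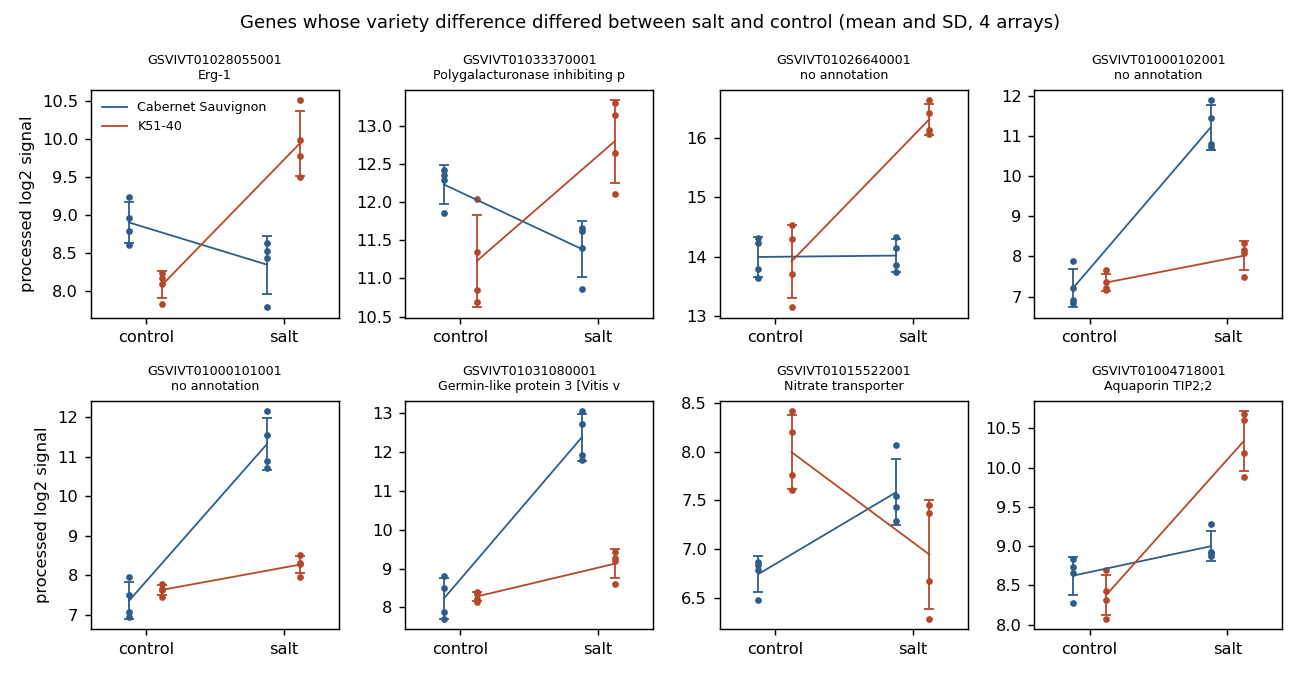
Processed log2 signal (y axis) without and with salt (x axis) for 8 genes, as 4 arrays per group with mean and SD, K51-40 and Cabernet Sauvignon in separate colours joined by lines between the means. The lines cross or part in each panel, as for Erg-1, where K51-40 was below Cabernet Sauvignon without salt and above it with salt.

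The nitrate transporter VvNRT1.4 (GSVIVT01015522001, chromosome 11), named after a carrier that stores nitrate in leaf stalks of Arabidopsis, was the only one of the 90 anion transporter genes to pass this test. With salt it read 6.67, 7.37, 7.45 and 6.29 in K51-40 and 7.54, 8.07, 7.44 and 7.29 in Cabernet Sauvignon, which overlap (difference −0.64, adjusted p 0.0624), and at the second probe −0.89 was called (adjusted p 0.0158). Without salt it read 8.42, 7.76, 7.60 and 8.20 against 6.48, 6.87, 6.79 and 6.84, and every K51-40 array was higher. The difference between both comparisons was −1.89 (95% interval −2.61 to −1.17, adjusted p 0.0179), and −1.98 at the second probe. CYP89A6 (GSVIVT01023560001, chromosome 14), a cytochrome P450 chosen after its values were seen, had opposite calls at both probes, with −1.27 and −1.28 with salt and 1.92 and 1.93 without (differences −3.19 and −3.21).

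Stilbene synthases, which make the defence compound resveratrol and its relatives, differed less between varieties with salt than without it at most of their probes. Of 22 probes of 11 genes, the median difference was 1.37 without salt and 0.18 with salt, and the difference between both comparisons was called at 13 probes, all of them below 0, beside 0.372% of all probes. With salt 3 probes were called higher and 4 lower, and no gene was higher at both probes and 1 was lower. That gene, GSVIVT01010590001, had −0.60 with salt and 0.37 without at 1 probe, and −3.28 and −2.93 at the other. GSVIVT01010579001 had 0.37 with salt and 1.76 without at 1 probe, and −1.39 and −0.28 at the other. On chromosome 16, GSVIVT01010574001 had 1.52 without salt and 0.23 with it at 1 probe, and stilbene synthase 4 (GSVIVT01010585001) had 1.58 and 0.41. On chromosome 10, GSVIVT01026220001 had 1.28 and −0.63, a difference of −1.91 (adjusted p 0.0312). All 11 genes are in the study's table of salt-responsive genes, chosen on these samples, and they are near-identical copies that can share signal, so the probes are not 11 separate measurements.

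The study's groups of salt-responsive genes, also chosen on these samples, showed the variety difference as follows. Of 59 genes listed as raised by salt in 140 Ruggeri 9 were higher in K51-40 and 13 lower, of 394 listed as lowered by salt in K51-40 46 were higher and 97 lower, and of 180 listed as lowered by salt in Cabernet Sauvignon 65 were higher and 16 lower. The median differences of the 140 Ruggeri, K51-40 and Cabernet Sauvignon groups with salt were 0.02, −0.21 and 0.49, and without salt 0.11, 0.40 and −0.09. Of all 1346 salt-responsive genes 276 were higher (20.5%) and 243 lower (18.1%).

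The salt-treated roots of 140 Ruggeri were set beside the called probes as a level only. Its mean lay nearer to that of K51-40 at 10506 of 17596 probes (59.7%), with 58.5% of the higher and 61.0% of the lower ones. At 3773 probes it lay beyond K51-40 and at 2162 beyond Cabernet Sauvignon. Among the genes described, it was nearer to K51-40 for the secretory protein, nearer to Cabernet Sauvignon for RD22, CHX20 and germin-like protein 3, and between them for NTL1, both NAXT genes and PYL1.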

How the data were processed

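RNA of whole roots was hybridised to a custom single-colour Agilent array, whose scanner intensities were deposited for each array beside a table of processed values. Per the submitters' processing notes, Agilent Feature Extraction 10.7.3 and limma were used. The authors normalised the deposited log2 values between arrays by quantiles and removed the effect of scan date with ComBat, an empirical Bayes batch correction; which groups it protected is not given in the sources used here. That correction was made before the tests, so their error does not include it.

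Rows of the processed table were joined to probes by feature number, and the 61657 spots were averaged per probe to 52478 probes (1 spot for 44935 probes, 11 or 12 for the 180 anion transporter probes and more than 1 for 7363 others). Genes are those of the Vitis vinifera 12xV0 models, names come from the study's supplementary tables and chromosomes from the 12xV1 locus names. K51-40 and Cabernet Sauvignon salt arrays were compared with limma 3.58.1 (lmFit and eBayes) in R 4.3.3 over these 8 arrays. The control arrays were fitted in the same way, and the difference between both comparisons over the 16 arrays of both varieties. P values were adjusted over all 52478 probes by Benjamini-Hochberg, and a call needed an adjusted p of at most 0.05 and an absolute log2 difference of at least 0.5. In simulated data with 100 probes changed by 1 and 100 by 2, the salt comparison recovered 89% and 96%, with 1.6% of calls false. For the difference between both comparisons it was 90% and 98%, with 5.05% of calls false. The simulated noise was independent and normal without a batch step, and far fewer probes changed than were called. These shares therefore do not carry over to the data.

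For probes well above background on no array of a group, a bound was taken from the probe's own signal on each array or, if higher, that array's lowest signal well above background. Figures were drawn with matplotlib 3.10.9.

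Named genes were chosen by rule. They were the 10 highest and 10 lowest annotated and 2 each unannotated genes with every probe called and no overlap of arrays, ranked by the smaller difference, up to 6 anion transporters each way, the study's primer list and table of transporters, the 2 largest each way of each list, and the 3 largest each way of the difference between comparisons. Other anion transporters, aquaporins and terpene or stilbene synthases are named as members of their lists. Members and lists were chosen with earlier results of these data known. The study's own fold changes and p values were not used.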

Additional observations from a re-analysis of the deposited data

Results flagged for a closer look

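Of 284 groups of 4 arrays examined for 142 named genes with salt, 13 had 1 array apart from the other 3 by Dixon's criterion, which chance alone meets in about 1 of 20 groups. On K51-40 arrays these were, as log2 signal, replicate 1 low for a pectinesterase (GSVIVT01015290001, 8.40) and a calcium-dependent kinase (GSVIVT01022524001, 5.99), replicate 3 high for VvNRT1.8 (GSVIVT01018395001, 8.21) and flavonol synthase (GSVIVT01008907001, 7.84), and replicate 4 low for CAX2 (GSVIVT01016118001, 11.47) and ABC transporter C member 1 (GSVIVT01015960001, 9.17) and high for VvGTR2 (GSVIVT01008073001, 8.95). On Cabernet Sauvignon arrays they were replicate 1 low for nitrate transporter 1:2 (GSVIVT01008064001, 5.35), VvALMT1 (GSVIVT01036162001, 6.26) and a small heat shock protein (GSVIVT01035434001, 6.40), and replicate 3 low for SnRK2.7 (GSVIVT01003419001, 10.88) and high for VvTIP2;3 (GSVIVT01004718001, 9.28) and a late embryogenesis abundant protein (GSVIVT01025171001, 8.39).

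For 15 named genes the variety difference with salt differed from that without by the limma test over all probes, given as a log2 value at the called probe where it was largest. Above 0 were Erg-1 (GSVIVT01028055001, 2.42), a polygalacturonase inhibiting protein (GSVIVT01033370001, 2.42), the unannotated GSVIVT01026640001 (2.37), a heat shock protein binding protein (GSVIVT01001745001, 1.67), VvTIP2;3 (GSVIVT01004718001, 1.59), cytochrome c oxidase subunit 6b (GSVIVT01013246001, 1.42), the late embryogenesis abundant protein (GSVIVT01025171001, 1.07) and a cinnamyl alcohol dehydrogenase (GSVIVT01003153001, 1.02). Below 0 were the unannotated GSVIVT01000102001 (−3.34) and GSVIVT01000101001 (−3.32), germin-like protein 3 (GSVIVT01031080001, −3.31), VvNRT1.4 (GSVIVT01015522001, −1.98), a class III peroxidase (GSVIVT01032715001, −1.68), polyol transporter 5 (GSVIVT01031930001, −1.01) and Myb102 (GSVIVT01003662001, −0.88). The 6 largest were chosen by this test, so their size is a description.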

How the results depend on the processing

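The salt comparison kept its counts within 1.5 times under most alternatives, including all 22 arrays in 1 fit (8962 probes higher and 8692 lower), the scanner intensities with ComBat (8685 and 8476) or with scan date as a block (8769 and 8554), normexp correction (7607 and 7623), only detected probes (8733 and 8634) and each scan date alone (8252 and 8068; 9215 and 9089). Leaving out 1 array gave 8604 to 9129 higher and 8430 to 8790 lower probes, and 2576 to 2820 and 2461 to 2624 genes. Scaling the scanner signal to the 75th percentile gave 15341 higher and 9810 lower probes (61.0% of calls higher, against 50.8%) and 4873 and 2916 genes, with a median difference of 0.21 in place of 0.05, so small differences depend on the scaling. A threshold of 1 left 3250 and 4062 probes and 945 and 1026 genes, and no fold threshold gave 14210 and 12252 probes and 4600 and 3849 genes. Requiring every probe gave 2718 and 2580 genes, and at least 1 probe with none called the other way 5814 and 5688.

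For the control comparison, scanner intensities gave 4457 and 4652 probes and 1256 and 1206 genes, and, in an alternative chosen after seeing the data, 8669 and 8513 probes without the scanner output labelled Cabernet Sauvignon control replicate 3. Leaving out 1 array gave 8539 to 8806 and 8303 to 8529 probes, and 2602 to 2766 and 2423 to 2560 genes. For the difference between comparisons, scanner intensities gave 4 and 19 probes and 1 and 4 genes, and 81 and 115 probes and 19 and 25 genes without that output. Leaving out 1 array gave 61 to 256 and 100 to 253 probes, and 11 to 61 and 22 to 66 genes, with the fewest higher probes without Cabernet Sauvignon control replicate 3.

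Replicate numbers did not pair the samples of the 2 varieties (correlations of deviations between same-numbered salt arrays of 0.14, −0.02, 0.20 and 0.02), while those of K51-40 salt and control arrays of the same number were 0.31 to 0.43 and those of Cabernet Sauvignon −0.35 to 0.37, so the salt and control arrays of 1 variety only deviated together at every number. With the replicate number as a block there were 8980 and 8706 probes with salt, 8672 and 8468 without, and 307 and 395 for the difference between them (68 and 112 genes). ACA13 (GSVIVT01018061001) reversed to −0.000551 (adjusted p 0.999) on the first scan date. Over all alternatives, 3446 values of named genes with salt kept direction and call, 74 lost and 24 gained the call. Signal over background limited the dimmest 10496 probes, of which 115 were higher and 169 lower, against 1854 and 1978 of the next 10495.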
